A study of Mus musculus with 8 samples.

Results

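The genes described here encode proteins of the lysosome: proteases, hydrolases of glycans and lipids, membrane proteins, the proton pump that acidifies the organelle, and the transcription factors that drive many of these genes. They are 40 genes chosen by name, and all 40 had a probe set whose number was their Entrez gene number, out of 24012 genes tested. Expression was measured in primary mouse macrophages grown for 7 days from bone marrow of wild-type animals aged 8 to 10 weeks, in medium with L cell-conditioned supernatant as the source of M-CSF, and replated the day before treatment. The samples of 1 group, called Hepcidin, received hepcidin at 10 µg/ml for 1 h before lysis, and those of the other group, called PBS, received PBS. Each group held 4 arrays numbered 1 to 4. The strain and sex of the mice, and whether a number marks an animal or a culture, are not given, so each p-value here reflects spread among samples that may be technical replicates.

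Lysosomes degrade proteins, lipids and glycans that arrive by endocytosis, phagocytosis and autophagy, and macrophages are rich in them. Their hydrolases work at the acid pH that the V-ATPase, a proton pump with a membrane sector (V0) and a cytosolic sector (V1), keeps up. The MiT/TFE transcription factors TFEB, TFE3 and MITF bind E-box-like elements in many lysosomal genes, and mTORC1 on the lysosome surface holds TFEB in the cytosol when nutrients are plentiful. Hepcidin, the hormone that limits iron export, binds the exporter ferroportin, and the complex is taken up and degraded in lysosomes.

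Promoters are shown because the MiT/TFE factors are known to bind E-box-like words, which some of these genes hold. RefSeq promoter windows (GRCm38.p6) of 300 bases, 250 before and 50 after a transcription start, were held for 33 of the 40 genes. The windows not held were those of Asah1, Atp6v0d2, Atp6v1b2, Ctsb, Ctse, Ctsh and Npc1. The E-box core CACGTG was in the windows of 11 of the 33 genes (33.3%), against 8.09% of all 27025 genes and 7.15% of all 32851 windows. These were Atp6v0d1, Atp6v1a, Ctsa, Ctsd, Ctsf, Ctsl, Gaa, Glb1, Lamp1, Lgmn and Mcoln1. The longer TCACGTGA, which contains the core, was found in 5 of 33 (15.2%), namely Atp6v0d1, Atp6v1a, Ctsa, Ctsd and Mcoln1, against 1.12% of all genes and 0.974% of all windows. The full palindrome of the CLEAR element, which contains both, was in 0 of 33, against 0.37% of all genes and 0.326% of all windows. All these words read the same on both strands. They are matches of letters, not measured binding. The following stretches run from 250 bases before to 20 bases after the start, 5′ to 3′, with the matched words in capitals. The first 4 hold the 8-letter word, with 2 copies in Ctsa, and Lamp1 was added after the matches were seen because its window held the core 4 times.
Ctsa (GRCm38.p6, chr2:164833523-164833792, plus strand): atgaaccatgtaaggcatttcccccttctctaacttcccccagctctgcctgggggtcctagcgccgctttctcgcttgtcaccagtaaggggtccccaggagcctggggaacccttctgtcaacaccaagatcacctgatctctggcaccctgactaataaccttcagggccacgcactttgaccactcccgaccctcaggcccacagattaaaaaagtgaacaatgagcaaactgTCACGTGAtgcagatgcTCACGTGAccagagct
Ctsd (GRCm38.p6, chr7:142387808-142388077, minus strand): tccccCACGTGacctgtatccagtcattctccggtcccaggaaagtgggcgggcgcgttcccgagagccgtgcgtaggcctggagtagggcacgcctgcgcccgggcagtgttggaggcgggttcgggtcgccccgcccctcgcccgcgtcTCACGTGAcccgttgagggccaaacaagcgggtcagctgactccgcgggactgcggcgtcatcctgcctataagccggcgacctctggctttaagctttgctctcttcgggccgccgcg
Mcoln1 (GRCm38.p6, chr8:3500269-3500538, plus strand): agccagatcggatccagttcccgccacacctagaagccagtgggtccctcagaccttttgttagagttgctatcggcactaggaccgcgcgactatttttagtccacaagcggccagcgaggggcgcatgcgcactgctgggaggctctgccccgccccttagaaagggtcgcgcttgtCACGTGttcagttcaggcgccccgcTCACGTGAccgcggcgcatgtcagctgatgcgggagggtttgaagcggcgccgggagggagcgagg
Atp6v0d1 (GRCm38.p6, chr8:105566045-105566314, minus strand): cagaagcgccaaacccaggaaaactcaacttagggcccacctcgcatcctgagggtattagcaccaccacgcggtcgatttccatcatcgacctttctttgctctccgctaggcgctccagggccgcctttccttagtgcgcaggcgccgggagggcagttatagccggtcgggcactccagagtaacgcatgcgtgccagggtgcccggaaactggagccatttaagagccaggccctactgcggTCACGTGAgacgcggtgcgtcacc
Lamp1 (GRCm38.p6, chr8:13158911-13159180, plus strand): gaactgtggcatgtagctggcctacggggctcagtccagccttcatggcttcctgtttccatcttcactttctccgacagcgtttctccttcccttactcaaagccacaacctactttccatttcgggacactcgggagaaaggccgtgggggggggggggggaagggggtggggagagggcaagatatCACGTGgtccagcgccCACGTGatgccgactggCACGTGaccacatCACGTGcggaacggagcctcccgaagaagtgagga

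The 8 arrays had medians of 4.87 to 4.95 and correlated with each other across genes at 0.989 to 0.996. Precision is limited by their number. Of 8 macrophage markers, 7 were measured, at means from 8.34 to 11.9, and no marker of B cells or of T and NK cells had a mean above 5.36. The level of background was taken from 16 markers of endothelium and lymphocytes, with a median of 3.87 and a 90th percentile of 6.49. That percentile falls in a gap between 2 endothelial markers, Pecam1 at 5.72 and Vwf at 7.17 with PBS. Another, Kdr, stood at 7.53, so the cut is set by few markers. Arrays with the same number resembled each other, and both arrays numbered 1 stood apart: the mean of 10 neutrophil and precursor markers was 4.54 (PBS) and 4.37 (hepcidin) there, and 5.41 to 5.98 on the other 6.

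At rest, that is with PBS, most of the lysosomal genes gave bright signals. Mean log2 levels ran from 5.09 for Ctsf to 13.56 for Ctsb with a median of 11.2, and 37 of 40 lay above the 90th percentile of the background markers. Those that did not were Ctsf at 5.09 ± 0.28, Atp6v0c at 6.06 ± 0.30 and Tfeb at 6.08 ± 0.12 (mean ± SD, n = 4). Probe sets differ in how they respond to RNA, so these levels do not rank the genes by abundance. Ctsb, which encodes the cysteine protease cathepsin B, held the top of the table's scale on 8 of 8 arrays. The resting spread was small for most genes: the SD over the 4 PBS arrays ran from 0.02 for Ctss to 0.47 for Ctse. Its median was 0.11, against 0.15 over all genes and 0.17 over the genes whose mean reached 6. Both of those sets were dimmer, with median PBS levels of 4.91 and 8.03, and no set of like brightness was compared.

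**Figure D1:**
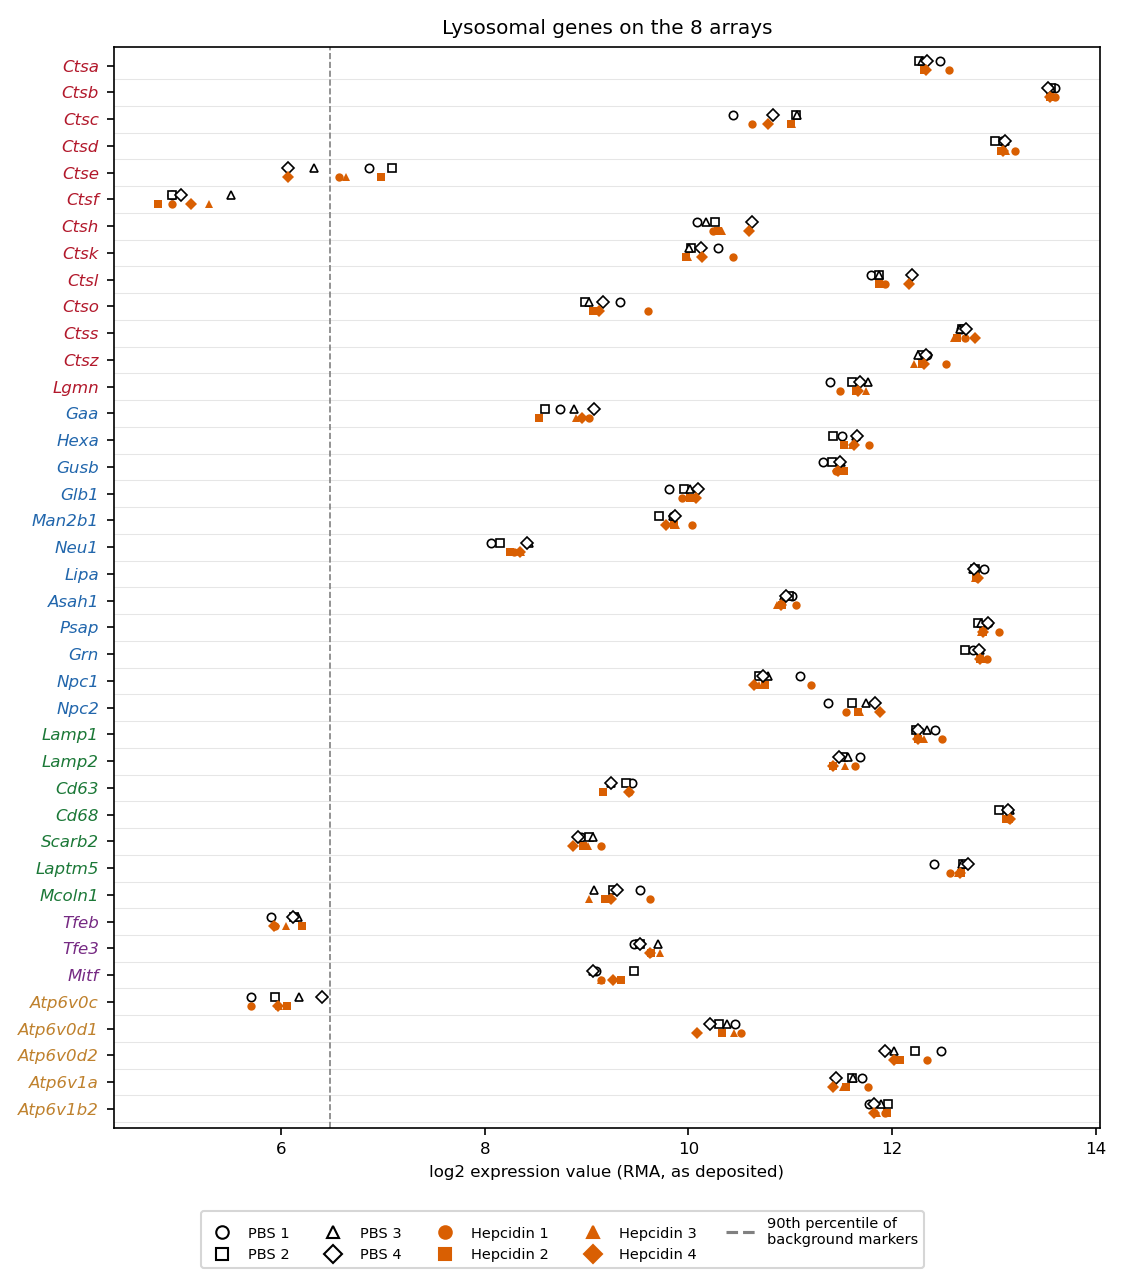
Log2 values (x axis) of the 40 lysosomal genes (y axis, coloured by role) on the 4 PBS arrays (open) and the 4 hepcidin arrays (filled), with the marker shape giving the replicate number and the dashed line the 90th percentile of the background markers, 6.49. PBS and hepcidin points overlap for each of the 40 genes, and for several of them, such as Npc1 and Ctsc, both arrays numbered 1 sit apart from the rest.

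After 1 h of hepcidin, none of the 40 lysosomal genes differed from PBS beyond the spread between arrays. The differences ran from -0.13 for Atp6v0c to 0.09 for Tfe3 on the log2 scale, with a median of 0.02 against 0.00 over all genes. They were above 0 in 28 of 40 (50.4% of all genes and 56.5% of the genes whose mean reached 6). That count dropped to 17 of 40 when hepcidin number 1 was removed and was 18 of 40 when PBS number 1 was removed too. PBS and hepcidin values overlapped in 40 of 40 (1.88% of all genes did not overlap). In limma, 0 of 40 passed an adjusted p of 0.05, as did 0% of all genes, and 0 of 40 had an unadjusted p under 0.05, where 2.86% of all genes did. The smallest unadjusted p among them was 0.27, for Tfe3, with an adjusted p of 1.00. With the replicate number as a block, 0 of 40 passed after adjustment (0.00416% of all genes, which is 1 gene) and 0 of 40 had an unadjusted p under 0.05, against 4.91% of all genes. With the number as a random block 0 of 40 passed, against 0.0208% of all genes, which is 5 genes.

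The size of a difference that these arrays still allow is given by its 95% confidence interval. Ctsb is left out here, because it was the top value of each array, where normalization may hide a rise. For 39 of the other 39 genes the interval lay within 1.5-fold of no difference in either direction. That held for 93.2% of all genes and 92.7% of the genes with a mean of at least 6. Within 1.25-fold lay the intervals of 30 of 39, against 52.8% of all genes and 56.0% of the genes with a mean of at least 6. Those reaching beyond 1.25-fold belonged to Atp6v0c, Atp6v0d2, Ctsc, Ctse, Ctsf, Ctsh, Ctso, Gaa and Mcoln1. With the replicate block the intervals of 38 of 39 lay within 1.25-fold, and that of Atp6v0c did not. The share was 69.8% over all genes and 83.9% over the genes with a mean of at least 6. These intervals are not adjusted for the number of genes. The median residual SD of the 40 genes was 0.12 without the block and 0.06 with it, against 0.15 and 0.12 over all genes. Over the genes with a mean of at least 6 it was 0.16 and 0.09. The 40 genes were brighter as a group than either set, and no set of like brightness was compared.

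**Figure D2:**
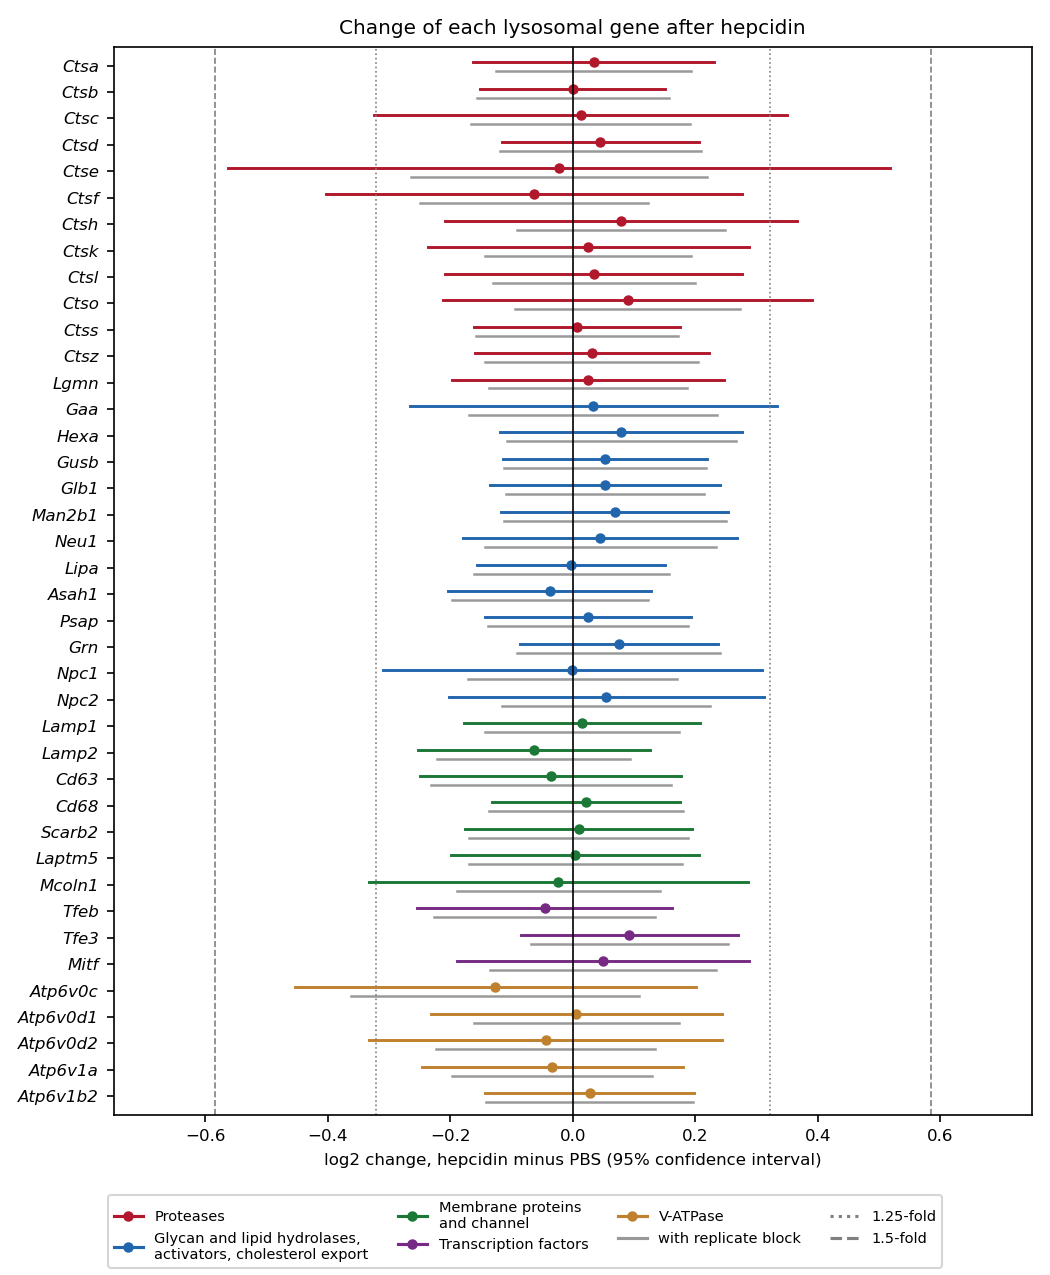
Log2 difference between hepcidin and PBS (points, x axis) for each of the 40 lysosomal genes (y axis), with 95% confidence intervals from limma without the replicate block (coloured by role) and with it (grey), n = 4 arrays in each group. Each interval includes 0 and stays within the dashed lines at 1.5-fold, and that of Ctse, from -0.56 to 0.52, is the widest without the block. That of Ctsb, the top value of each array, may not limit a rise.

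Among the 13 proteases, 11 had a difference above 0 and 2 below, 0 passed, and the median was 0.03. Ctso, a widely expressed cysteine cathepsin, was at 9.33, 8.98, 9.02 and 9.16 on PBS arrays 1 to 4 and at 9.60, 9.07, 9.06 and 9.12 with hepcidin. The arrays numbered 1 were the highest in both groups, and the difference was 0.09 ± 0.14. Ctsd encodes the main aspartic protease of lysosomes and gave 13.08, 13.01, 13.10 and 13.11 with PBS and 13.21, 13.07, 13.12 and 13.08 with hepcidin. Its groups overlapped, with a difference of 0.05 ± 0.07. The values of Ctsf, another cysteine cathepsin, were 4.93, 4.92, 5.51 and 5.02 with PBS and 4.92, 4.80, 5.29 and 5.11 with hepcidin, with both arrays numbered 3 the highest, and its difference was -0.06 ± 0.15.

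The other proteases lay closer to 0 or varied more. Ctsb was at 13.56 ± 0.03 with PBS and 13.56 ± 0.02 with hepcidin (SD, n = 4). As the top value of each array, it may fail to show a rise. Ctss, the cathepsin that trims the invariant chain of MHC class II, stood at 12.69 ± 0.02 with PBS and 12.69 ± 0.09 with hepcidin, with an interval from -0.16 to 0.18. Ctsl, which encodes a cysteine endopeptidase, differed by 0.03 ± 0.11, and Ctsz, which encodes a carboxypeptidase, by 0.03 ± 0.09. The asparaginyl endopeptidase gene Lgmn, whose product processes other cathepsins, differed by 0.03 ± 0.10, and Ctsa, the protective protein of the galactosidase and sialidase complex, by 0.03 ± 0.09. Ctsk, known as the collagenase of osteoclasts, gave 0.03 ± 0.12, and Ctsh, an aminopeptidase gene, 0.08 ± 0.13. Ctsc, which encodes the activator of granule serine proteases, gave 0.01 ± 0.15.

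Of the 12 genes of glycan and lipid breakdown, activator proteins and cholesterol export, 9 had a difference above 0 and 3 below, 0 passed, and the median was 0.05. Grn, which encodes the granulin precursor, was at 12.80, 12.71, 12.86 and 12.86 on PBS arrays 1 to 4 and at 12.94, 12.86, 12.88 and 12.86 with hepcidin. It was higher with hepcidin in 4 of 4 pairs, by 0.08 ± 0.07, though the PBS array numbered 3 lay above the hepcidin arrays numbered 2 and 4. Hexa, the alpha subunit of hexosaminidase, gave 11.51, 11.42, 11.65 and 11.65 with PBS and 11.77, 11.53, 11.61 and 11.63 with hepcidin. Only pairs 1 and 2 were higher with hepcidin, and the difference was 0.08 ± 0.09. Asah1, the acid ceramidase gene, stood at 11.02, 10.99, 10.94 and 10.95 with PBS and at 11.06, 10.91, 10.87 and 10.91 with hepcidin, a difference of -0.04 ± 0.07 that was negative in pairs 2 to 4.

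Lipa, which encodes the lipase that frees cholesterol from esters, read 12.90, 12.81, 12.80 and 12.81 with PBS and 12.83, 12.83, 12.81 and 12.84 with hepcidin. The PBS array numbered 1 was the highest of the 8, and the interval of the difference was -0.16 to 0.15. The cholesterol exporters of the lysosome act in sequence, the soluble Npc2 passing cholesterol to the membrane protein Npc1. Npc1 stood at 10.82 ± 0.19 with PBS and 10.82 ± 0.25 with hepcidin, and Npc2 differed by 0.05 ± 0.12. The glycosidase genes Gusb, Glb1, Man2b1, Gaa and Neu1 had differences from 0.03 to 0.07. Psap, the precursor of the saposins that help lipid hydrolases, differed by 0.02 ± 0.08.

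Membrane proteins gave 4 differences above 0 and 3 below among 7 genes, with 0 passing and a median of 0.00. Lamp2, a heavily glycosylated protein of the lysosomal membrane that also serves chaperone-mediated autophagy, read 11.69, 11.52, 11.56 and 11.48 with PBS and 11.63, 11.42, 11.53 and 11.42 with hepcidin. It was lower with hepcidin in 4 of 4 pairs, by 0.03 to 0.11, and the groups overlapped. The difference was -0.06 ± 0.09, and with the replicate block its SE was 0.07 and its unadjusted p 0.377. Its relative Lamp1 gave 12.43, 12.23, 12.34 and 12.26 with PBS and 12.49, 12.26, 12.31 and 12.25 with hepcidin, a difference of 0.01 ± 0.09. Grn and Tfe3 were the genes higher in 4 of 4 pairs, 2 of 40 against 5.69% of all genes, and Lamp2 was the gene higher in 0 of 4, 1 of 40 against 5.95%.

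The tetraspanin gene Cd63 read 9.44, 9.38, 9.24 and 9.24 with PBS and 9.42, 9.17, 9.17 and 9.42 with hepcidin, so that pairs 2 and 4 went opposite ways. Its difference was -0.04 ± 0.10. Cd68, the sialomucin used as a macrophage marker, stood at 13.13, 13.05, 13.16 and 13.14 with PBS and at 13.14, 13.12, 13.15 and 13.16 with hepcidin, a difference of 0.02 ± 0.07. Scarb2, the receptor that delivers glucocerebrosidase, gave 0.01 ± 0.08, and Mcoln1, the calcium channel TRPML1, gave -0.02 ± 0.14. Laptm5, a membrane protein of blood cells, had an interval from -0.20 to 0.21.

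Of the 3 transcription factors, 2 had a difference above 0 and 1 below, 0 passed, and the median was 0.05. Tfe3 gave 9.47, 9.52, 9.70 and 9.53 with PBS and 9.62, 9.63, 9.72 and 9.62 with hepcidin. The PBS array numbered 3 lay above 3 of the hepcidin arrays, and the difference was 0.09 ± 0.08. Mitf, the family member named for its part in melanocytes and also active in osteoclasts, read 9.09, 9.46, 9.06 and 9.06 with PBS and 9.14, 9.33, 9.15 and 9.26 with hepcidin, a difference of 0.05 ± 0.11. Tfeb was near the background markers, at 5.91, 6.13, 6.16 and 6.11 with PBS and 5.94, 6.20, 6.04 and 5.93 with hepcidin, and differed by -0.05 ± 0.09. For the 11 genes with CACGTG in the promoter window, as printed for Ctsa, Ctsd, Mcoln1, Atp6v0d1 and Lamp1, differences ran from -0.06 to 0.05 with a median of 0.03. The 22 genes with a window that lacked it ran from -0.13 to 0.09 with a median of 0.03. The arrays measure mRNA, so movement of the factors between cytosol and nucleus was not measured.

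Of the 5 V-ATPase subunits, 2 had a difference above 0 and 3 below, 0 passed, and the median was -0.03. Atp6v0c, the proteolipid that forms the rotor ring of V0, had the difference farthest from 0 of the 40 genes. It read 5.70, 5.94, 6.17 and 6.40 with PBS and 5.71, 6.06, 5.98 and 5.97 with hepcidin, with pair 4 lower by 0.43 and pair 2 higher by 0.12. The difference was -0.13 ± 0.15, at a level below the 90th percentile of the background markers. Atp6v0d1, the widely expressed d subunit, gave 10.46, 10.30, 10.38 and 10.21 with PBS and 10.52, 10.33, 10.44 and 10.09 with hepcidin, a difference of 0.01 ± 0.11. Its relative Atp6v0d2, known from osteoclasts and macrophages, differed by -0.04 ± 0.13.

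The catalytic V1 sector was represented by its A and B subunits. Atp6v1a read 11.70, 11.60, 11.61 and 11.45 with PBS and 11.76, 11.54, 11.52 and 11.42 with hepcidin, a difference of -0.03 ± 0.10. Atp6v1b2 gave 11.77, 11.96, 11.89 and 11.82 with PBS and 11.93, 11.95, 11.85 and 11.83 with hepcidin. Its difference of 0.03 ± 0.08 came from pair 1, at 0.16, while pairs 2 to 4 lay between -0.04 and 0.00.

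That feature of pair 1 was shared by much of the group. In pair 1, 33 of 40 genes were higher with hepcidin (51.5% of all genes), with a median difference of 0.10. In pairs 2, 3 and 4 there were 21, 15 and 14 of 40 (49.9%, 47.2% and 50.2% of all genes), with medians of 0.02, -0.01 and -0.02. Of the 9274 genes whose mean reached 6 or more, 65.0% were higher in pair 1, with a median of 0.07, so brighter genes in general lay above 0 in that pair. The hepcidin array numbered 1 decided the direction of the median of the 40 genes: it was 0.02 with all arrays and -0.01 without that array, and it was 0.00 without both arrays numbered 1.

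Between replicate numbers, 1 of the 40 genes passed the test. In limma's F-test for replicate number, with treatment in the fit, Ctse passed an adjusted p of 0.05, against 5.6% of all genes and 11.9% of the genes with a mean of at least 6. At an unadjusted p under 0.05 there were 13 of 40, against 20.6% of all genes and 35.2% of the genes with a mean of at least 6. The count of calls depended on the variance model. With trend and robust variance 14 of 40 passed (11.8% of all genes), and when only the genes with a mean of at least 6 were tested 11 of 38 passed (31.2% of the genes tested). Number 1 held the highest mean for 20 of 40 genes and the lowest for 12. Number 2 also held the lowest for 12, and numbers 3 and 4 for 7 and 9. These counts were not made over all genes.

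Ctse encodes cathepsin E, an aspartic protease of endosomes found in immune cells. It read 6.86, 7.09, 6.32 and 6.07 with PBS and 6.57, 6.98, 6.64 and 6.07 with hepcidin, so both arrays numbered 2 were the highest and both numbered 4 the lowest. The means over the numbers spanned 0.96, with an adjusted p of 0.0319 in limma's F-test. Without any 1 array numbered 1, 2 or 4 of either group, that call was lost, at adjusted p-values from 0.0510 to 0.149. It was also lost without both arrays numbered 1, at 0.0671. Its level is close to the 90th percentile of the background markers.

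The next smallest p-values in that test belonged to Ctsc, Mcoln1, Ctsf, Npc1 and Ctsh, with adjusted p-values from limma of 0.0723 to 0.117. Ctsc was low on both arrays numbered 1, at 10.44 (PBS) and 10.63 (hepcidin), while the other 6 read 10.78 to 11.07. Npc1 went the other way, at 11.10 and 11.20 on number 1 against 10.65 to 10.78 elsewhere. Mcoln1 was also highest on number 1, at 9.53 and 9.62 against 9.03 to 9.30. Ctsh was highest on number 4, at 10.63 and 10.60, against 10.09 to 10.33 on the other arrays. None of these 5 passed. Number 1 stood apart for Ctsc (low), Npc1 and Mcoln1 (both high), number 3 for Ctsf and number 4 for Ctsh.

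Markers of some cell types passed the F-test for number. Of 10 neutrophil and precursor markers, 8 passed the F-test for number, and their mean was 4.46, 5.96, 5.87 and 5.42 on numbers 1 to 4. It ran from 4.54 to 5.98 over the PBS arrays and from 4.37 to 5.94 over the hepcidin arrays, though only Ngp of the 10 lay above the 90th percentile of the background markers with PBS, and Camp, at 3.50, was below their median. Of 8 osteoclast markers, 4 passed, with list means of 5.80, 6.16, 5.88 and 6.09, and from 5.75 to 6.09 over the PBS and from 5.85 to 6.22 over the hepcidin arrays. The 4 that passed went different ways. Itgb3 was highest on number 1, at 8.01, and Dcstamp on number 2, at 7.26. Acp5 and Mmp9 were highest on number 4, at 6.90 and 6.99. With PBS 2 of the 8, Itgb3 and Nfatc1, lay above that 90th percentile, and Calcr and Oscar, both known from osteoclasts, were below the background median, at 3.52 and 3.45. Ctsk and Atp6v0d2, both known from osteoclasts, were highest on number 1, at means of 10.36 and 12.41 against at most 10.13 and 12.15 on the other numbers. Most of the 8 osteoclast markers did not share this. Dcstamp, Acp5, Mmp9, Ocstamp and Nfatc1 were lowest on number 1, at 5.23, 5.78, 6.23, 5.57 and 8.28. Only Itgb3 and Calcr were highest there. Of 7 macrophage markers, 3 passed, with list means of 10.6, 11.1, 11.2 and 11.1. These 3 did not share a pattern. Fcgr1 was lowest on number 1, at 9.01, and highest on number 4, at 11.35. Mertk was lowest on number 1, at 7.92, and Mrc1 on number 4, at 11.14. Calls were 0 of 6 for dendritic cells, 0 of 5 for B cells, 0 of 5 for T and NK cells, 0 of 6 for fibroblasts and 1 of 6 for endothelium. The part of these cells in the differences between numbers was not tested. In whole samples, fewer cells of a type and less RNA per cell cannot be told apart.

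**Figure D3:**
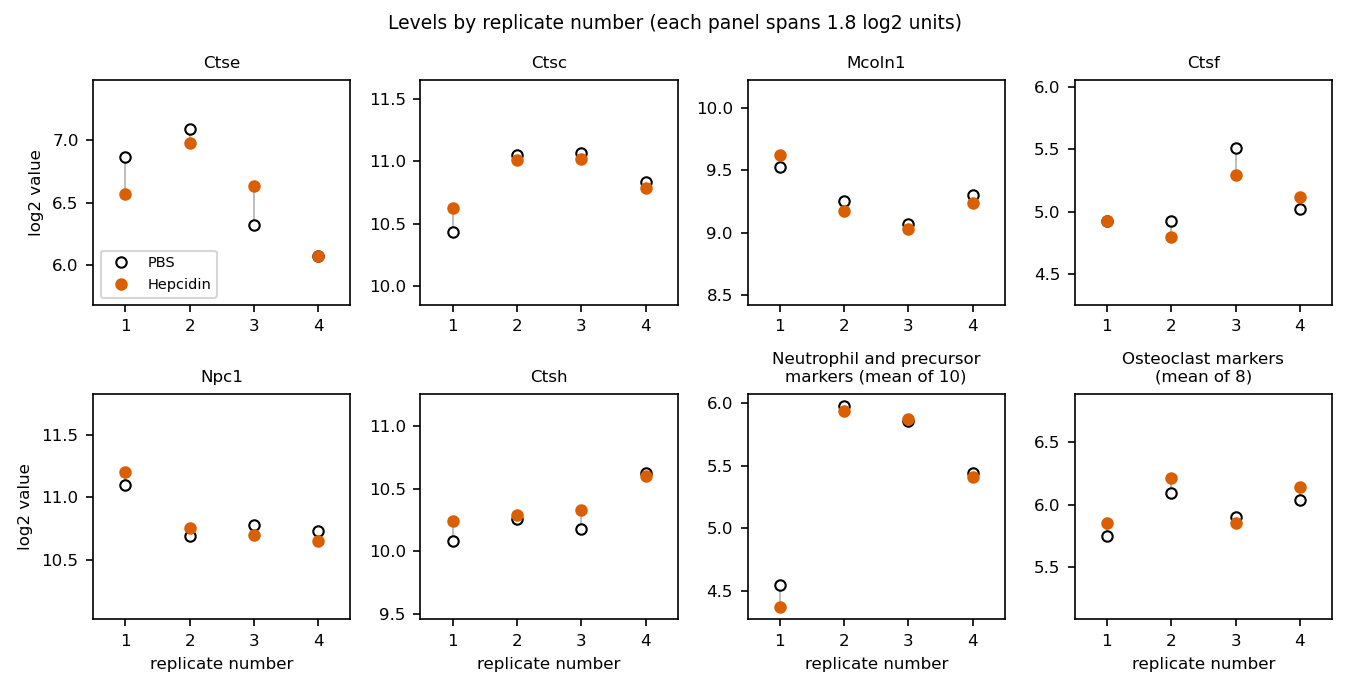
Log2 values (y axis, each panel spanning 1.8 units) by replicate number (x axis) for the 6 lysosomal genes with the smallest p for number and for the means of 2 marker lists, with PBS open, hepcidin filled and a line joining each pair. Pairs lie close together while numbers differ: Ctse falls from 7.04 on number 2 to 6.07 on number 4, and the neutrophil and precursor markers are lowest on number 1, at 4.46.

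Other genes of the lysosome, from 6 lists with 129 of 135 entries measured, gave no call for hepcidin. In limma, 0 of 129 passed after adjustment (0% of all genes) and 0 of 129 had an unadjusted p under 0.05 (2.86% of all genes). The median difference was 0.02, with 81 of 129 above 0 (50.4% of all genes and 56.5% of those with a mean of at least 6). In pairs 1 to 4, 91, 67, 76 and 52 of 129 were higher with hepcidin (51.5%, 49.9%, 47.2% and 50.2% of all genes). Among genes with a mean of at least 6 the shares were 65.0%, 46.5%, 51.6% and 45.1%. With the replicate block 0 of the 129 passed, and 3 had an unadjusted p under 0.05 (4.91% of all genes): the sulfatase gene Arsa, the Ragulator gene Lamtor3 and the channel gene Mcoln2. Median differences were 0.01 for the other V-ATPase genes, 0.01 for the other hydrolases and 0.02 for the other membrane proteins. They were 0.01 for Tfec with the mTORC1 and Rag genes, 0.04 for sorting and fusion genes and 0.04 for cystatins, which inhibit cysteine cathepsins. In pairs 1 to 4 the cystatin medians were 0.10, 0.16, 0.06 and -0.19.

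The genes with the smallest unadjusted p of each list are named with their differences. In the V-ATPase list these were Atp6v1g3 at -0.22 ± 0.11, with a PBS level of 3.42 below the background median, and Atp6v1f at -0.20 ± 0.14, with a PBS level of 5.86 below the 90th percentile of the background markers. Among hydrolases they were Arsa, which desulfates glycolipids, at 0.23 ± 0.12 and Plbd2 at 0.14 ± 0.11. Among membrane proteins they were the transporter genes Abca2 and Slc15a3, both at 0.15 ± 0.14. In the mTORC1 list they were Lamtor3 at 0.19 ± 0.12 and Lamtor1 at 0.14 ± 0.10, subunits of the Ragulator that anchors mTORC1 on lysosomes. The sorting list gave Vps18, a subunit of the tethering complex for fusion, at 0.10 ± 0.10 and Gga3, a sorting adaptor, at 0.09 ± 0.09. The cystatin list gave Stfa3 at 0.09 ± 0.09, with a PBS level of 3.20 below the background median, and Cstb at 0.08 ± 0.09.

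Between replicate numbers, 10 of these 129 genes (7.75%) passed limma's F-test, against 5.6% of all genes and 11.9% of the genes with a mean of at least 6, which 114 of the 129 have. With PBS, 112 of the 129 lay above the 90th percentile of the background markers. There were 4 of 18 in the list of Tfec and mTORC1 genes, 3 of 26 among membrane proteins, 2 of 36 hydrolases, 1 of 20 sorting genes, 0 of 22 V-ATPase genes and 0 of 7 cystatins. Rragd, a Rag GTPase gene that MiT/TFE factors are known to drive, had means of 8.46, 6.88, 7.35 and 7.03 on numbers 1 to 4. The calcium channel gene Mcoln3 stood at 8.93, 7.98, 7.42 and 7.29. Its relative Mcoln2 gave 9.33, 8.88, 8.64 and 8.45, and Mcoln1, described above, 9.57, 9.22, 9.05 and 9.27, so number 1 held the highest mean of all 3 channel genes. Tfec, the MiT/TFE gene with a narrow range of tissues that includes macrophages, read 8.69, 8.81, 8.52 and 7.81, while the means of Tfe3 spanned 0.17 and those of Mitf 0.29.

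The other genes that passed were Sort1, the sorting receptor sortilin, with means spanning 0.99, the acid phosphatase gene Acp5 (1.12), Laptm4b (0.98), the folliculin partner genes Fnip2 (0.80) and Fnip1 (0.58), and the galactosidase gene Gla (0.56). Acp5 was among the osteoclast markers too, and its PBS level of 6.36 was not above the 90th percentile of the background markers. Leaving out 1 array left 4 to 8 of the 129 genes (3.1% to 6.2%), against 2.12% to 3.44% of all genes. Leaving out both arrays numbered 1 left Sort1 and Tfec (1.55%), against 0.691% of all genes. With trend and robust variance 39 of 129 passed (30.2%), against 11.8% of all genes. With only genes of a mean of at least 6 tested, 36 of 114 passed (31.6%), against 31.2% of those genes. With hepcidin the largest difference among these 10 was that of Mcoln2, at 0.21 ± 0.22, and with the replicate block its SE was 0.08 and its adjusted p in limma 0.970.

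**Figure D4:**
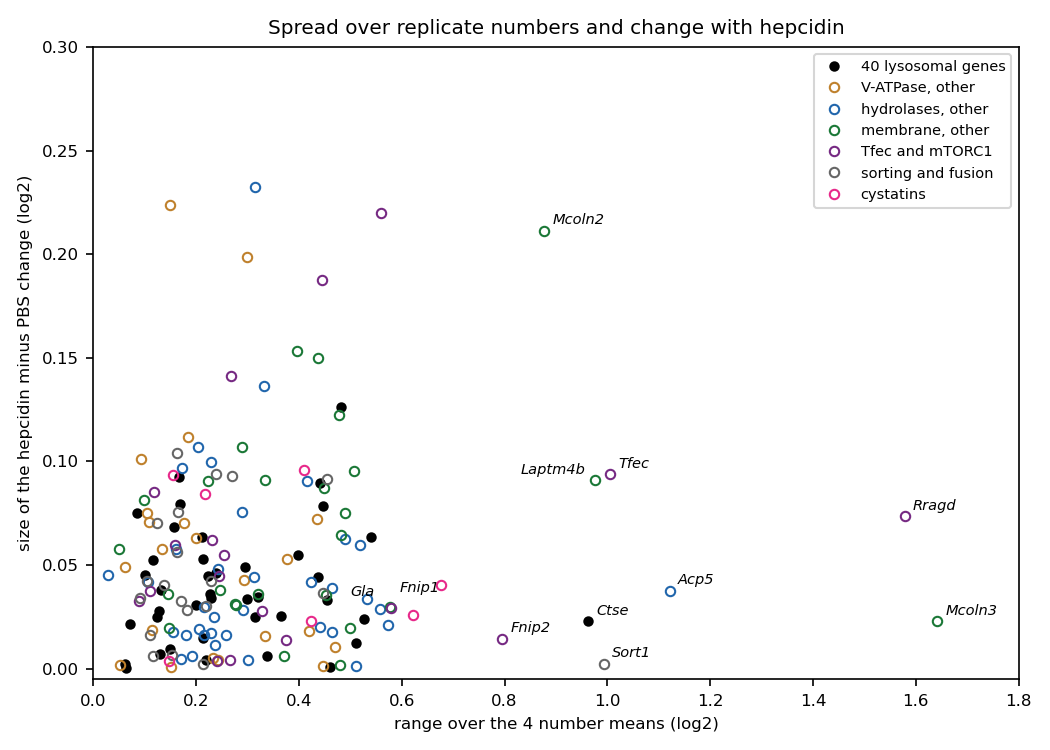
Size of the log2 difference between hepcidin and PBS (y axis) against the range over the 4 number means (x axis) for the 40 lysosomal genes (black) and the 129 other genes of the lysosome (coloured by list), with names for the genes that passed the F-test for number. Ranges reach 1.64 for Mcoln3 and 1.58 for Rragd, while the largest difference with hepcidin is that of Arsa, at 0.23.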

How the data were processed

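Total RNA of 8 samples was labelled with biotin for Affymetrix arrays, per the labels' protocols. The submitters' processing notes name RMA and affy 1.36.1. The deposited values were taken as log2 expression from their range, and no further normalization was applied. RMA removes background, equalises the distributions of the arrays and merges the probes of a set, and ratios shrink near background. The probe set definition and genome build were not given in the sources used here.

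The table held 24973 probe sets. Those with a gene in the platform annotation, 24015, were all numbered by their Entrez gene. For symbols with several probe sets the brightest was kept, which left 24011 genes. Of the 40 lysosomal genes, 39 were among these, and Atp6v0c was matched by its number alone, so 24012 genes were tested.

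Each gene was fitted in R 4.3.3 by lmFit and eBayes of limma 3.58.1 (default settings, no filter on dim genes), with Benjamini-Hochberg adjustment over all genes at 0.05. Differences are hepcidin minus PBS, ± SE from this fit. Replicate number was tested with limma's moderated F-test on 3 degrees of freedom, with treatment in the fit. The fits were also run on simulated data. Its noise was the spread left after the replicate block, so the fit without the block met less noise there than in these arrays. Once group means were removed, same-numbered arrays correlated across genes at 0.344 to 0.548 and differently numbered ones at -0.356 to 0.124. Equal numbers were therefore taken as pairs in the fits with the replicate block and in the pair differences. The meaning of these pairs is left unsaid by the labels. The main fit, which gave the ± SE, did not use the pairs. Lists hold known lysosomal genes, and list genes were named where they had the 2 smallest unadjusted p-values of their list or passed the threshold. The genes, lists and alternatives were chosen with earlier results of these data known. Alternatives were other normalizations, a filter at a mean of 6, all probe sets, trend and robust variance, the replicate block (fixed or random), and leaving out arrays. Python 3.11.15, pandas 2.3.3 and matplotlib 3.10.9 were used for motif counts and plots.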

Additional observations from a re-analysis of the deposited data

Results flagged for a closer look

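In each group of 4 arrays, the highest or lowest value of each of the 40 genes was set against the others with Dixon's test, and 10 of 80 groups had an array beyond the 95% critical value. Chance gives about 1 in 20 groups, and arrays that share a number are not independent. In 6 of the 10 the array was numbered 1. The rule was not run on all genes, so these counts cannot be set against those of other genes. With hepcidin, the array numbered 1 was high for Ctsa (12.56, others 12.31 to 12.33), Ctso (9.60, others 9.06 to 9.12), Psap (13.05, others 12.87 to 12.90) and Atp6v0d2 (12.34, others 12.02 to 12.08). With PBS, the array numbered 1 was high for Lipa (12.90, others 12.80 to 12.81) and low for Laptm5 (12.41, others 12.69 to 12.75).

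The PBS array numbered 2 was high for Mitf (9.46, others 9.06 to 9.09) and low for Man2b1 (9.71, others 9.85 to 9.87). The PBS array numbered 3 was high for Ctsf (5.51, others 4.92 to 5.02), and the hepcidin array numbered 3 for Tfe3 (9.72, others 9.62 to 9.63). The cause of these values was not tested.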

How the results depend on the processing

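In limma, 0 of the 40 genes passed for hepcidin, with 0 at an unadjusted p under 0.05, under each of the 17 alternatives that were run. The median difference of the 40 genes ran from -0.01 to 0.03 with any 1 array removed, and was 0.04 with arrays centred on the median and 0.01 with quantile normalization repeated. Differences near 0 turned sign in up to 15 of 40 genes (without PBS replicate 1), none of them past the threshold. The replicate block changed no call of the 40 genes. It gave 3 of the 129 other genes an unadjusted p under 0.05 (fixed) or 1 (random), against 0, and leaving out single arrays gave 0 to 3.

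Counts for replicate number moved more. The 1 of 40 called became 11 among genes with a mean of at least 6, 14 with trend and robust variance and 0 without both arrays numbered 1, and 0 to 1 without single arrays. The share of all genes tested moved too, from 5.6% to 31.2%, 11.8% and 0.691% in that order, and to 2.12% to 3.44% without single arrays. The 13 at an unadjusted p under 0.05 became 21 with trend and robust variance and 5 without both arrays numbered 1, and 7 to 11 without single arrays. For these unadjusted counts the share of all genes was not computed under the alternatives. The 10 of 129 other genes called became 36 of 114, 39 of 129 and 2 of 129 under the same 3 settings, and 4 to 8 without single arrays. Without arrays, fewer samples were tested. The counts of promoters with CACGTG and TCACGTGA were 10 and 5 in the shorter window from 150 bases before the start, against 11 and 5.

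Dim genes limit what can be said: Ctsf, Tfeb and Atp6v0c lay below the 90th percentile of the background markers, a range in which RMA shrinks ratios, and Ctsb lay at the top of the scale.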
